A study of Mus musculus with 12 samples.

Results

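Fc receptors for IgG, the Trem receptors and the activating C-type lectins, together with the 2 adapter chains through which they signal, were examined as 1 set of 10 genes in all 12 libraries of the series. The genes were Fcgr1, Fcgr2b, Fcgr3, Fcgr4, Fcer1g, Tyrobp, Trem1, Trem3, Clec4d and Clec4e. They were chosen by name from the 23309 genes listed, and all 10 were among the 11516 genes that reached 1 FPKM in at least 2 libraries. FPKM are fragments per kilobase of transcript, by definition scaled to the fragments mapped in a library. The methods describe a further loess normalization to added ERCC synthetic RNAs, whose sums lay between 2700 and 2941 FPKM in the 12 libraries. RNA-seq was performed on mouse myeloid progenitors, wild type (WT) or HMGN1-OE, at 0, 36 and 96 h after withdrawal of estradiol (E2), with 2 libraries in each of 6 groups. HMGN1-OE cells carried human HMGN1, a nucleosome-binding protein, as a transgene whose promoter is not given in the sources used here, and the controls came from wild-type littermates on the same C57BL/6 background. Cultures of both genotypes were CD117-selected bone marrow cells that carry, by retrovirus, HoxB8 fused to the estrogen receptor (ER-HoxB8), so that the HoxB8 activity that blocks their maturation depends on E2. All groups were therefore immortalized lines, and the 0 h groups still had active HoxB8.

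Fc gamma receptors bind the constant region of IgG and let myeloid cells take up or attack antibody-coated targets. Fcgr1, Fcgr3 and Fcgr4 are activating receptors that have no activating motif of their own and pair with the common gamma chain Fcer1g, which carries an immunoreceptor tyrosine-based activation motif (ITAM). Fcgr2b is the inhibitory receptor, with an inhibitory motif (ITIM) in its own tail. Tyrobp (DAP12) is the other ITAM adapter and serves the Trem receptors, among them Trem1 and Trem3, which amplify inflammatory responses of neutrophils and macrophages. Clec4d and Clec4e (Mincle) are C-type lectins that recognise microbial glycolipids and signal through Fcer1g.

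In the GENCODE vM21 annotation, Fcgr2b, Fcgr4 and Fcgr3 followed each other on chromosome 1, where Fcer1g also lies, and Fcgr1 was on chromosome 3. Clec4d and Clec4e were next to each other on chromosome 6, Trem1 and Trem3 on chromosome 17, and Tyrobp lay beside Hcst, another adapter gene, on chromosome 7. Of all stretches of 50 bases in the Fcgr3 exons, 9.58% also occurred in Fcgr2b, so that the division of reads between those 2 genes is uncertain. Fcgr2b overlapped the antisense gene Gm38204, and the strand of the counted reads is not given in the sources used here. Promoters in RefSeq (GRCm38.p6, matched by symbol) were found for 8 of the 10 genes and not for Tyrobp and Trem3. The 250 bases before the start are shown for the lectin genes Clec4d (chr6:123261857-123262106, plus strand) and Clec4e (chr6:123289872-123290121, minus strand), which fell during maturation, and for Trem1 (chr17:48232489-48232738, plus strand) and Fcgr4 (chr1:171018676-171018925, plus strand), which rose. Capitals mark matches, on either strand, to the letters searched for the myeloid factors PU.1 and C/EBP and for the IRF family.
Clec4d: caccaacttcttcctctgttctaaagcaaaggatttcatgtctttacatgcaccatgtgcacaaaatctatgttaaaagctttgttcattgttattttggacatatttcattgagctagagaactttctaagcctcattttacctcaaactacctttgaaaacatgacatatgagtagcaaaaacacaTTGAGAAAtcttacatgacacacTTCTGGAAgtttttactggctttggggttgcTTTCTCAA
Clec4e: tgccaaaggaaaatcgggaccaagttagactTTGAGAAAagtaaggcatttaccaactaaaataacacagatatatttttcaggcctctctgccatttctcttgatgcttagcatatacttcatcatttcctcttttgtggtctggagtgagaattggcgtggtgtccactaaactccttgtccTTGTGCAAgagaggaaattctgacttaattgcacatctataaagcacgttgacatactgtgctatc
Trem1: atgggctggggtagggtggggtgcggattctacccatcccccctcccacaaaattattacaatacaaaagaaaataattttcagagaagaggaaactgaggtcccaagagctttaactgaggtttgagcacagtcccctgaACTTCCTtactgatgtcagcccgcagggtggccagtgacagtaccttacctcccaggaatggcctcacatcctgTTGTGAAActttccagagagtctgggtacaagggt
Fcgr4: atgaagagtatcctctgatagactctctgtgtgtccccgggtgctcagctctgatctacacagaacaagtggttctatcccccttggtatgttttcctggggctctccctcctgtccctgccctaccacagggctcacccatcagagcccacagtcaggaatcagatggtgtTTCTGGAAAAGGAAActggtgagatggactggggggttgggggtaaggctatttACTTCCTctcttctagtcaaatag

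The C/EBP letters TTNNGNAA stood before 5 of the 8 genes (Clec4d, Clec4e, Fcgr3, Fcgr4 and Trem1), and in 36.8% of 32851 mouse promoters of the same length. These shares count promoter entries, of which a gene such as Fcgr3 can have several, and the promoters of a single chromosome were left out. They were present 3 times before Clec4d and 2 times before Clec4e, as well as before 3 genes that rose. The PU.1 letters AGGAAGT stood before Fcgr1, Fcgr4 and Trem1, compared with 7.69% of all promoters, and in the sequences above they appear as their reverse complement. The IRF letters (GAAA, any 2 bases, GAAA) were found only before Fcgr4 among the 8 (2.98% of all promoters), where they overlap the C/EBP match. The AP-1 letters TGANTCA (6.75% of all promoters) and the NF-kB letters (GGGA, any 2 bases, TTCC, 1.21%) were found before none of the 8 genes. These matches are a description of the letters and not of binding.

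Some libraries stood apart from the other library of their group. Summed FPKM ranged from 228955 in the second WT library at 96 h to 1442573 in the second WT library at 36 h. This range spans different times and is wider than that of any group (libraries are given in the order of the deposited columns). As a ratio, the sums of a group lay furthest apart in WT cells of 96 h (449750 and 228955 FPKM). The closest pair was that of HMGN1-OE cells of 36 h (909475 and 898852 FPKM). The WT libraries at 36 h differed from each other in markers. The progenitor genes Cd34 and Flt3 were at 264 and 4.10 FPKM in the first and at 1105 and 67.0 FPKM in the second, and the mast cell protease Cpa3 was at 2013 and 554 FPKM. The libraries of each group are separate samples by their labels, and p-values measure only the spread between such libraries. Differences were tested on log2(FPKM + 1) with limma and Benjamini-Hochberg adjustment over all tested genes. limma took each gene's variance from the trend over expression, so a gene's own spread does not enter its standard error, and an exact permutation test of 2 libraries against 2 cannot go below p = 0.333.

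The set was already transcribed before E2 was withdrawn, at very different levels. On the FPKM scale, which is per length of transcript, Fcer1g had the highest level in every library at 0 h, between 348 and 698 FPKM, followed by Clec4e, between 139.6 and 232 FPKM, except in the second WT library, where Fcgr2b (249.7 FPKM) and Tyrobp (181 FPKM) were above Clec4e. Fcgr1 and Fcgr4 had the lowest levels, from 0.657 to 3.54 FPKM. Neighbours in this order, such as Fcgr2b, Clec4d and Tyrobp, overlapped between libraries.

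From 0 to 96 h, 7 of the 10 genes were called in WT cells and 8 in HMGN1-OE cells. In WT cells Fcgr1, Fcgr3, Fcgr4, Tyrobp and Trem1 rose (5 of 10, against 4.31% of all tested genes) and Clec4d and Clec4e fell (2 of 10, against 77.2%). In HMGN1-OE cells Trem3 was called in addition, giving 6 genes that rose (5.08% of all genes) and the same 2 that fell (62.4%). Without overlap between libraries, 4 genes lay above and 2 below 0 h in WT (4.84% and 80.9% of all genes) and 6 above and 2 below in HMGN1-OE cells (7.95% and 82.8%). The median of all tested genes moved by -1.75 (log2) in WT and -1.28 in HMGN1-OE cells, whereas the median of the 10 genes was 0.92 and 1.87. With each library centred on its own median, all 10 genes except Clec4d in WT cells were called, 8 higher and 1 lower in WT and 8 higher and 2 lower in HMGN1-OE cells, beside 36.5% of all genes higher and 33.8% lower in WT and 30.9% and 32.5% in HMGN1-OE cells. In bulk RNA, fewer cells of a type and less RNA per cell cannot be told apart.

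**Figure D1:**
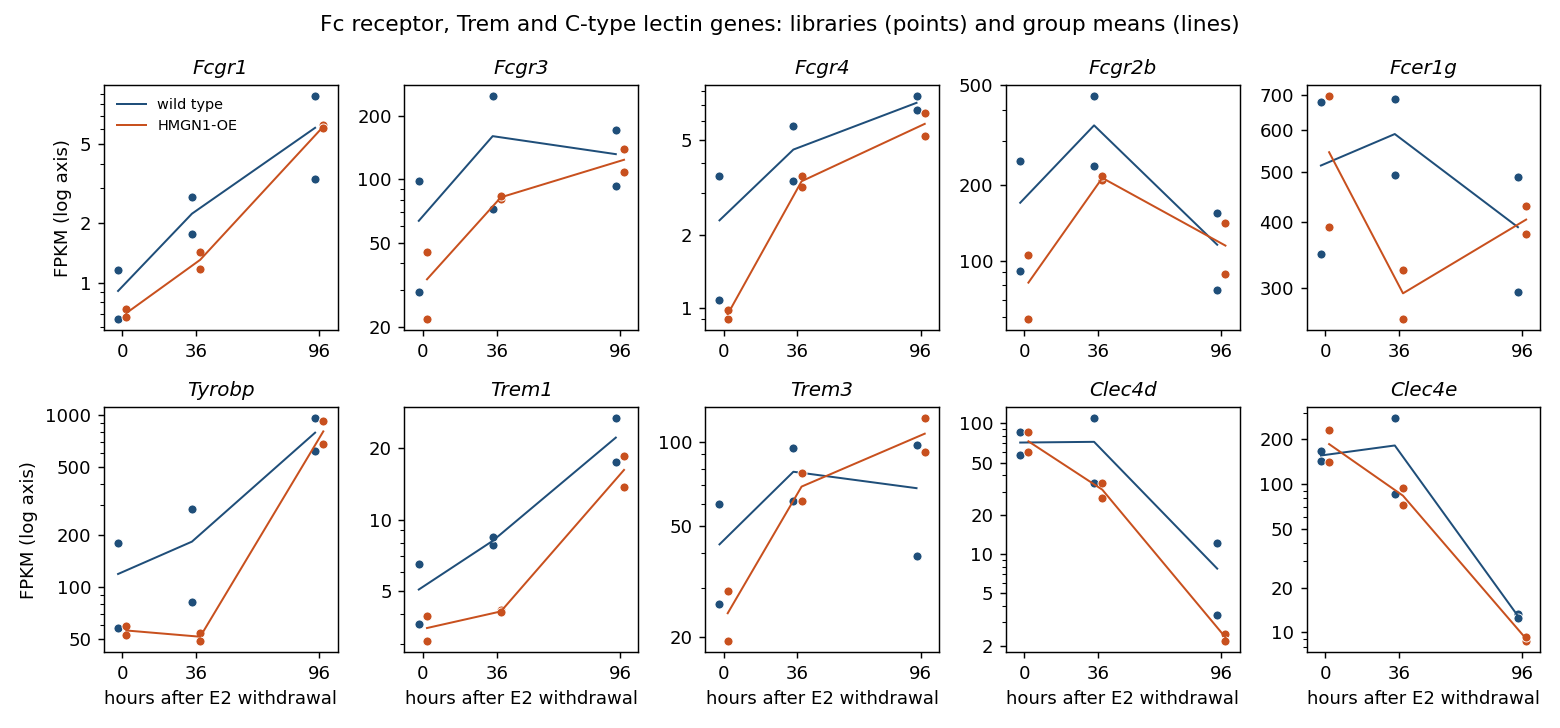
FPKM (log axis) of the 10 genes against hours after E2 withdrawal, with points for single libraries and lines through the means of 2 libraries, WT in blue and HMGN1-OE in orange. Tyrobp reached 621 to 962 FPKM at 96 h, above all libraries of earlier times, while Clec4d and Clec4e ended at or below 13.3 FPKM.

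The adapter chains changed in unlike ways. Tyrobp was at 57.8 and 181 FPKM in WT and at 59.5 and 52.4 FPKM in HMGN1-OE cells at 0 h. At 36 h it was at 286 and 82.0 FPKM in WT and at 54.4 and 48.6 FPKM in HMGN1-OE cells. By 96 h it stood at 962 and 621 FPKM in WT and at 684 and 927 FPKM in HMGN1-OE cells, higher than every earlier library of either genotype. Its log2 fold change from 0 to 96 h was 2.90 (SE 0.59, adjusted p = 2.71e-06) in WT and 3.81 (adjusted p = 1.81e-09) in HMGN1-OE cells, and the mean FPKM rose 6.63-fold and 14.4-fold. The WT change was 2.09 without the first 0 h library and 3.72 without the second. Most of it came after 36 h, when Tyrobp rose by 2.33 in WT (adjusted p = 0.000113) and by 3.93 in HMGN1-OE cells (adjusted p = 7.96e-10) on the log2 scale. The WT part of this was 1.43 and not called (adjusted p = 0.0825) without the second 36 h library.

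Fcer1g, by contrast, stayed within a 3-fold range. Its WT levels were 348 and 680 FPKM at 0 h, 493 and 688 FPKM at 36 h, and 489 and 294 FPKM at 96 h. In HMGN1-OE cells they were 698 and 392 FPKM, 261 and 324 FPKM, and 381 and 429 FPKM. The libraries of 0 and 96 h overlapped in both genotypes. The log2 fold changes from 0 to 96 h, -0.36 in WT and -0.37 in HMGN1-OE cells (adjusted p = 0.579 and 0.584), did not pass the test, and relative to the median of each library they were 1.49 and 0.94, both past it.

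The ratio of the adapters within a library is free of any factor common to a library. Tyrobp over Fcer1g was 0.166 and 0.266 in WT and 0.0853 and 0.134 in HMGN1-OE cells at 0 h. At 36 h the ratio was 0.581 and 0.119 in WT and 0.208 and 0.15 in HMGN1-OE cells, and by 96 h it had become 1.97 and 2.11 in WT and 1.8 and 2.16 in HMGN1-OE cells. Fcer1g thus exceeded Tyrobp in all 8 libraries of 0 and 36 h and Tyrobp exceeded Fcer1g in all 4 libraries of 96 h. This ratio was chosen after the values were seen and was not tested.

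Among the activating Fc gamma receptors, Fcgr1, the high-affinity receptor, began near the detection filter. It was at 1.16 and 0.657 FPKM in WT and 0.738 and 0.670 FPKM in HMGN1-OE cells at 0 h. After 36 h it had 1.76 and 2.71 FPKM in WT and 1.44 and 1.18 FPKM in HMGN1-OE cells, and at 96 h at 8.78 and 3.36 FPKM and at 6.25 and 6.07 FPKM. Each time lay above the one before in both genotypes, with no overlap. The log2 fold change from 0 to 96 h was 1.79 in WT (SE 0.38, adjusted p = 8.68e-06) and 2.07 in HMGN1-OE cells (adjusted p = 6.18e-07), on a scale that understates changes of low genes, and the ratio of mean FPKM was 6.67 and 8.75. In WT cells the change was 1.20 without the first library of 96 h and 2.37 without the second. From 36 to 96 h it was 1.03 in WT (adjusted p = 0.00832) and 1.64 in HMGN1-OE cells (adjusted p = 9.5e-05), and the WT call was lost without the first library of 36 h (0.82, adjusted p = 0.0796) or of 96 h (0.45, adjusted p = 0.319).

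Fcgr4, which binds some IgG subclasses with intermediate affinity, was at 1.08 and 3.54 FPKM in WT and at 0.896 and 0.981 FPKM in HMGN1-OE cells at 0 h. It was at 5.72 and 3.37 FPKM in WT and 3.52 and 3.19 FPKM in HMGN1-OE cells at 36 h, and at 7.59 and 6.64 FPKM and 5.15 and 6.48 FPKM at 96 h. The 96 h libraries lay above all 0 h libraries in both genotypes. Fcgr4 rose from 0 to 96 h by 1.40 on the log2 scale in WT (adjusted p = 0.00115) and 1.81 in HMGN1-OE cells (adjusted p = 6.17e-05). In WT cells it was 0.84 without the first 0 h library and then did not pass the test (adjusted p = 0.0634).

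Fcgr3, a low-affinity activating receptor, was far more abundant. WT cells had 29.2 and 98.1 FPKM at 0 h, 248 and 72.4 FPKM at 36 h, and 171 and 92.9 FPKM at 96 h. HMGN1-OE cells had 45.5 and 21.8 FPKM, 80.7 and 83.8 FPKM, and 108 and 139.8 FPKM. The WT libraries of 0 and 96 h overlapped, and the HMGN1-OE libraries did not. Fitted log2 fold changes from 0 to 96 h were 1.21 in WT (adjusted p = 0.0393) and 1.93 in HMGN1-OE cells (adjusted p = 0.00178). The WT call was lost in 10 of the 12 fits that left out 1 library, with 0.36 without the first 0 h library and 0.78 without the first 96 h library, and the HMGN1-OE call was lost without the second 0 h library (1.41, adjusted p = 0.0749).

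The inhibitory receptor Fcgr2b had its highest mean level at 36 h. It was at 91.1 and 249.7 FPKM in WT and 105.2 and 58.7 FPKM in HMGN1-OE cells at 0 h, and at 453 and 239.7 FPKM and 210.5 and 217 FPKM at 36 h. At 96 h it was at 156 and 76.2 FPKM in WT and 88.6 and 141.5 FPKM in HMGN1-OE cells. In both genotypes the 96 h libraries were below those of 36 h and overlapped those of 0 h. The fall from 36 to 96 h was called in WT cells (log2 fold change -1.59, SE 0.58, adjusted p = 0.00767) and not in HMGN1-OE cells (-0.93, adjusted p = 0.139), and the difference between those changes, 0.66 (adjusted p = 0.484), was not called either. The WT call was lost without the first 36 h library (-1.13, adjusted p = 0.159) or the second 96 h library (-1.08, adjusted p = 0.0692), and relative to the library medians the change was 0.74 (adjusted p = 0.0823). From 0 to 96 h the log2 fold change was -0.47 in WT and 0.51 in HMGN1-OE cells (adjusted p = 0.45 and 0.431), and relative to the library medians it was 1.38 and 1.82, both called.

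Fcgr2b over Fcgr3, the inhibitory over the activating gene, was 3.12 and 2.55 in WT and 2.31 and 2.69 in HMGN1-OE cells at 0 h. It was 1.83 and 3.31 in WT and 2.61 and 2.59 in HMGN1-OE cells at 36 h, and 0.913 and 0.821 in WT and 0.821 and 1.01 in HMGN1-OE cells at 96 h. All 4 libraries of 96 h lay below all 8 earlier ones. The stretches of sequence that the 2 genes share limit this ratio, which was chosen after the values were seen and was not tested.

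**Figure D2:**
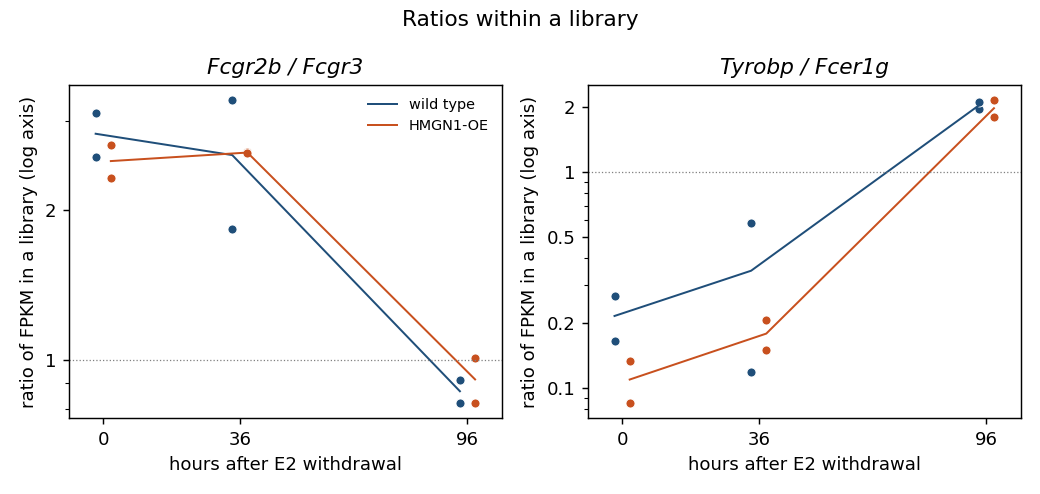
Ratio of FPKM within a library (log axis) against hours after E2 withdrawal for Fcgr2b over Fcgr3 (left) and Tyrobp over Fcer1g (right), with points for single libraries and lines through the means of 2. At 96 h the first ratio was between 0.821 and 1.01 and the second between 1.8 and 2.16, outside the range of the earlier libraries in both panels.

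On the deposited scale Trem1 rose in both genotypes, and the rise of Trem3 was called in HMGN1-OE cells only. Trem1 was at 3.65 and 6.51 FPKM in WT and at 3.91 and 3.08 FPKM in HMGN1-OE cells at 0 h, and at 7.82 and 8.44 FPKM and 4.15 and 4.07 FPKM at 36 h. At 96 h it was at 26.7 and 17.5 FPKM in WT and 18.6 and 13.8 FPKM in HMGN1-OE cells, above every earlier library. The log2 fold change from 0 to 96 h was 1.94 in WT (SE 0.47, adjusted p = 8.01e-05) and 1.92 in HMGN1-OE cells (adjusted p = 0.000179), and from 36 to 96 h it was 1.31 and 1.73 (adjusted p = 0.00619 and 0.00072). The WT change after 36 h was 1.02 and not called without the first 96 h library (adjusted p = 0.0534).

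Trem3 was at 26.1 and 59.6 FPKM in WT and 29.3 and 19.3 FPKM in HMGN1-OE cells at 0 h. It was at 94.7 and 61.3 FPKM in WT and at 77.0 and 61.0 FPKM in HMGN1-OE cells at 36 h, above the 0 h libraries of the same genotype. At 96 h it was at 97.3 and 38.9 FPKM in WT, overlapping 0 h, and at 92.2 and 121 FPKM in HMGN1-OE cells, above the earlier libraries. The change from 0 to 96 h was called in HMGN1-OE cells (2.11, SE 0.55, adjusted p = 0.000513) and not in WT cells (0.63, adjusted p = 0.281), where it was 1.28 and called without the second 96 h library (adjusted p = 0.0333), but -0.02 without the first 96 h library (adjusted p = 0.971) and 0.05 without the first 0 h library (adjusted p = 0.943). The difference between the genotypes in this change, 1.48 (SE 0.78, unadjusted p = 0.0585, adjusted p = 0.81), was not called. Relative to the library medians Trem3 rose from 0 to 96 h by 2.47 in WT and by 3.42 in HMGN1-OE cells, both called.

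The lectin genes Clec4d and Clec4e fell together. Clec4d was at 56.7 and 85.6 FPKM in WT and at 85.6 and 59.8 FPKM in HMGN1-OE cells at 0 h. It was at 34.7 and 109 FPKM in WT and at 26.9 and 35.2 FPKM in HMGN1-OE cells at 36 h, and at 3.40 and 12.1 FPKM and 2.46 and 2.16 FPKM at 96 h. The 96 h libraries were below every earlier one, and in HMGN1-OE cells those of 36 h were also below those of 0 h. The log2 fold change from 0 to 96 h was -3.22 in WT (SE 0.52, adjusted p = 6.35e-09) and -4.45 in HMGN1-OE cells (adjusted p = 8.41e-16), a fall of the mean FPKM of 9.19-fold and 31.4-fold. Relative to the library medians the HMGN1-OE fall was -3.14 and called, and the WT one was -1.37 and not called (adjusted p = 0.109). The WT change was -2.43 without the first 96 h library and -4.01 without the second.

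Clec4e was at 143.5 and 168 FPKM in WT and at 232 and 139.6 FPKM in HMGN1-OE cells at 0 h. It was at 85.5 and 278 FPKM in WT and 72.5 and 94.0 FPKM in HMGN1-OE cells at 36 h, and at 13.3 and 12.4 FPKM and 8.70 and 9.32 FPKM at 96 h. As with Clec4d, no 96 h library reached any earlier one, and the WT libraries of 36 h differed 3.25-fold from each other. From 0 to 96 h Clec4e changed by -3.50 (log2) in WT (SE 0.55, adjusted p = 3.02e-09) and -4.18 in HMGN1-OE cells (adjusted p = 1.92e-12), and -1.65 and -2.86 relative to the library medians, both called. Clec4n (Dectin-2), the gene on the other side of Clec4d, went the other way. It was at 0.302 to 1.95 FPKM in the libraries of 0 and 36 h and at 5.66 to 59.0 FPKM at 96 h, a rise from 0 h of 3.92 (log2) in WT and 2.19 in HMGN1-OE cells (adjusted p = 2.21e-21 and 3.3e-07).

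**Figure D3:**
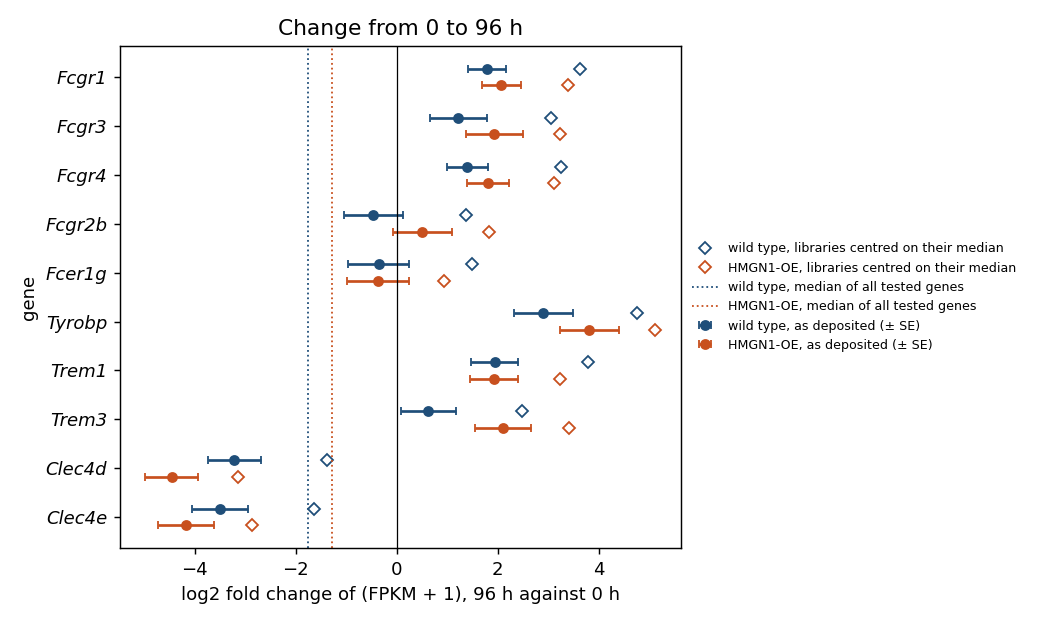
Log2 fold change of (FPKM + 1) from 0 to 96 h for each gene, with filled points for the deposited values (bars, SE from limma's trend), open diamonds for libraries centred on their median, and dotted lines for the median of all tested genes. On the deposited values with this scale Tyrobp rose most among the 10 genes, by 2.90 in WT and 3.81 in HMGN1-OE cells, and Clec4d and Clec4e lay between -4.45 and -3.22.

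Between 0 and 36 h no gene of the set was called by limma in either genotype, beside 0.617% of all genes in WT and 1.8% in HMGN1-OE cells. An unadjusted p under 0.05 was reached by 3 of the 10 genes in WT (Fcgr1, Fcgr3 and Fcgr4, against 3.28% of all genes) and by 6 in HMGN1-OE cells (Fcgr2b, Fcgr3, Fcgr4, Trem3, Clec4d and Clec4e, against 5.02%). When the fit held only the libraries of 0 and 36 h in HMGN1-OE cells, 5 genes were called, Fcgr2b, Fcgr3, Fcgr4 and Trem3 higher and Clec4d lower, and Trem3 was also called without either WT library of 96 h (adjusted p = 0.0421 and 0.0422). In HMGN1-OE cells 6 genes lay above 0 h without overlap (14.3% of all genes) and 3 below (Fcer1g, Clec4d and Clec4e, against 9.47%), and in WT cells Fcgr1, Trem1 and Trem3 lay above (25.7%) and none below (0.356%). From 36 to 96 h, Fcgr1, Tyrobp and Trem1 rose in both genotypes (3.15% of all genes in WT, 4.02% in HMGN1-OE cells). Clec4d and Clec4e fell in both, and Fcgr2b in WT (86.3% and 64.9% of all genes). Relative to the library medians, 7 genes were higher and 1 lower in WT (38.2% and 33.7% of all genes) and in HMGN1-OE cells 7 were higher and 2 lower (28.6% and 32.3%).

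Markers of maturing granulocytes moved with these changes. Of 18 neutrophil markers, S100a9 was listed at 0.0511 FPKM in the first WT library of 96 h, beside 26546 to 73461 FPKM in the other 96 h libraries and 69948 FPKM of its partner S100a8 in the same library, and it was therefore left out of the sum. S100a8 was the most abundant of the other 17. In WT these summed to between 9167 and 16077 FPKM at 0 h and between 40841 and 97618 FPKM at 96 h. In HMGN1-OE cells they summed to between 5662 and 8207 FPKM and between 70411 and 102409 FPKM, so that the sums of the genotypes overlapped at 96 h. Mmp9 was tested only because of its 96 h levels. Of the 17 markers without Mmp9, 10 were called higher and 6 lower from 0 to 96 h in WT, S100a9 with its 1 outlying value among the 6, and 13 higher and 3 lower in HMGN1-OE cells, beside 4.31% and 77.2% of all genes in WT and 5.08% and 62.4% in HMGN1-OE cells. The sum of 9 eosinophil markers, led by Prg2, went from between 5.72 and 15.0 FPKM to between 1176 and 2538 FPKM in WT, and from between 20.7 and 27.5 FPKM to between 299 and 596 FPKM in HMGN1-OE cells, with all 7 tested markers called higher in both, 3 of them tested only because of their 96 h levels. The 18 monocyte and macrophage markers, led by Lyz1, summed to between 104 and 299 FPKM at 0 h and between 281 and 320 FPKM at 96 h in WT, and to between 205 and 357 FPKM and between 272 and 340 FPKM in HMGN1-OE cells. Of the 9 tested ones without Klf4, which was tested only because of its 96 h levels, 3 were called higher and 3 lower in WT and 4 higher and 3 lower in HMGN1-OE cells. Relative to the library medians 5 of the 9 were higher and 1 lower in both genotypes, beside 36.5% and 33.8% of all genes in WT and 30.9% and 32.5% in HMGN1-OE cells. The receptor gene Csf1r was at 0.324 to 1.13 FPKM at 0 h and at 7.17 to 13.5 FPKM at 96 h, and the macrophage genes C1qa and Marco were at or below 0.2 FPKM in every library. Mast cell and basophil markers (12 genes, led by Cpa3) were highest at 36 h within each genotype. They summed to between 962 and 3039 FPKM in WT and between 1293 and 1337 FPKM in HMGN1-OE cells. The highest sum was in the WT library with 453 FPKM of Fcgr2b and 248 FPKM of Fcgr3. Progenitor markers (9 genes, led by Cd34) dropped from at least 933.5 FPKM at 0 h to at most 148.6 FPKM at 96 h. On the deposited scale 8 of these 9 progenitor markers were called lower in WT and 5 in HMGN1-OE cells, and relative to the library medians 3 were lower and 1 higher in WT and 5 lower and 2 higher in HMGN1-OE cells (33.8% and 36.5% of all genes in WT, 32.5% and 30.9% in HMGN1-OE cells). Of 13 lymphoid markers, 9 were at or below 0.2 FPKM in every library. HMGN1-OE cells were also set against WT cells at 96 h. Of 18 tested neutrophil markers, S100a9 with its outlying value included, 4 were called higher and 2 lower. Of 7 tested eosinophil markers 4 were called lower, and of 10 monocyte and macrophage markers 0 were called, beside 0.669% of all genes. At 36 h, 4 neutrophil markers and 1 eosinophil marker were called lower (1.26% of all genes). Relative to the library medians 0 of these were called at either time. The part of these cell types in the changes of the 10 genes was not tested.

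HMGN1-OE and WT cells were compared at each time to ask how the set differs with HMGN1 overexpression. Whether the 2 libraries of a genotype came from separate transductions is not given in the sources used here. Genotype and immortalized line therefore cannot be told apart. No gene was called by limma at 0, 36 or 96 h, beside 1.36%, 1.26% and 0.669% of all tested genes. At an unadjusted p under 0.05 there were 0, 1 and 1 genes, Tyrobp at 36 h and Clec4d at 96 h, beside 3.97%, 5.15% and 2.73% of all genes. All 10 genes had a lower fitted mean in HMGN1-OE cells at 36 h. Their median difference on the log2 scale was -0.77, beside -0.54 for all tested genes, and 5 lay below WT without overlap, as did 84.4% of all genes. At 0 h 7 of 10 were lower (median -0.53, all genes -0.12), and at 96 h 5 of 10 were lower (median 0.00, all genes 0.36). Relative to the library medians 7 of 10 were lower at 0 h, 7 at 36 h, where Fcgr1, Fcgr4 and Trem3 became positive, and 9 at 96 h, where Fcgr1, Fcgr2b, Fcer1g and Tyrobp became negative.

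On the deposited scale the widest difference was that of Tyrobp at 36 h, -1.56 (SE 0.59, unadjusted p = 0.0078, adjusted p = 0.328), where both HMGN1-OE libraries (54.4 and 48.6 FPKM) were below both WT ones (286 and 82.0 FPKM). It was -0.66 without the first WT library of 36 h and -2.45 without the second, and -0.98 relative to the library medians, and it was called in the fit without the second WT library of 96 h (adjusted p = 0.0479). Clec4d at 96 h was lower in HMGN1-OE cells by -1.20 (SE 0.52, unadjusted p = 0.0218, adjusted p = 0.859), again without overlap. Relative to the library medians the difference was -1.60, the widest of the 10 genes on that scale. Without the first WT library of 96 h the difference was -1.98 and called (adjusted p = 0.0299), and without the second it was -0.41. Clec4d, Clec4e and Fcgr4 were the genes below WT without overlap at 96 h (2.97% of all genes), and Fcgr4 the one at 0 h (4.67%). The interactions of genotype with time called none of the 10 genes for 36 against 0 h or for 96 against 0 h, beside 0.504% and 0.677% of all genes, and 0 had an unadjusted p under 0.05, beside 1.91% and 2.9% of all genes.

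**Figure D4:**
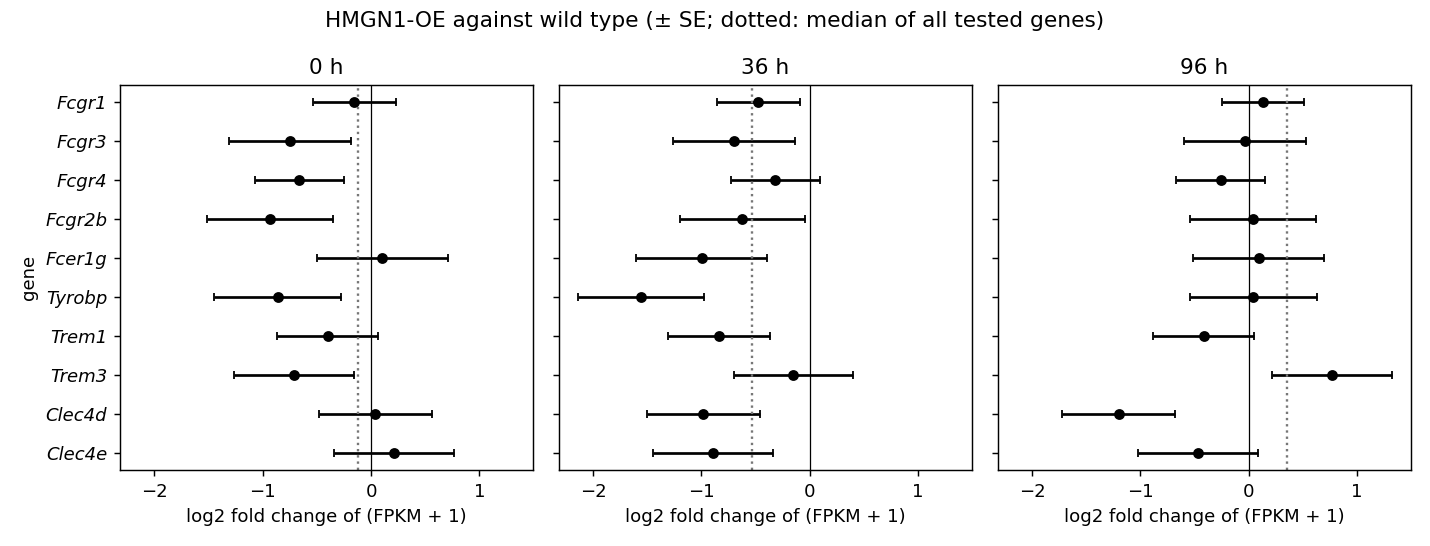
Log2 fold change of (FPKM + 1), HMGN1-OE against WT, at 0, 36 and 96 h for each gene, with bars for the SE from limma's trend and a dotted line for the median of all tested genes. At 36 h all 10 points were below 0 on this scale (7 of 10 relative to the library medians), as was the median of all genes (-0.54), and Tyrobp was lowest at -1.56.

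The genes followed a few shared courses over the 12 libraries, which share their scaling, time and genotype. Pearson's r on the deposited scale, given as a description, was 0.972 between Clec4d and Clec4e, 0.94 between Tyrobp and Trem1, 0.922 between Fcgr1 and Trem1, and 0.899 between Fcgr3 and Trem3. Fcgr4 was most like Fcgr3 (0.897). Fcgr2b (0.651, with Fcgr3) and Fcer1g (0.428, with Clec4e) were less like any other member on this scale, and r between Fcgr1 and Clec4d was -0.881. With each library centred on its median these values changed. Fcer1g then reached 0.911 with Trem1 and Fcgr2b 0.93 with Fcgr3, Fcgr1 and Clec4d were at -0.693, and the lowest r was that of Trem3 and Clec4e, -0.962. Outside the set, the genes closest to the mean course of the 10 on the deposited scale were Pygl (0.976), Pacs2 (0.974), Aifm2 (0.973), Nfkb2 (0.967) and Mapk3 (0.966).

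Other receptors and signalling genes of the same pathways were read from lists of known genes. A gene that passed the filter on low values only through the 96 h libraries (fewer than 2 of the 8 earlier libraries at 1 FPKM) had to be higher there, and such genes are counted apart. Of 18 tested genes on a list of other Trem and ITAM-linked receptors, which also held the adapter Hcst and the receptor Nfam1 with an ITAM of its own, 6 were of this kind. From 0 to 96 h, 6 of the other 12 rose and 0 fell in WT, and 7 rose and 0 fell in HMGN1-OE cells, beside 4.31% higher and 77.2% lower of all genes in WT and 5.08% and 62.4% in HMGN1-OE cells. The paired receptors Pilrb1 and Pilrb2, which had the widest differences of the list in WT, were among the 6, with at most 2.40 and 0.967 FPKM in any earlier library and from 11.5 to 21.0 and from 5.02 to 11.1 FPKM at 96 h. Several genes of this list, among them the Pira and Pilrb families, have close copies, so that their single values are uncertain.

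Of 16 other C-type lectins, 6 passed only through the 96 h libraries. Of the other 10, 5 rose and 3 fell in WT (4.31% and 77.2% of all genes), and 6 rose and 2 fell in HMGN1-OE cells (5.08% and 62.4%). Clec4a2, an inhibitory lectin of the same family as Clec4d, rose by 4.26 and 4.96, and Clec2i and Clec2d, ligands of natural killer receptors, fell by 2.90 and 1.89 in WT and by 2.47 and 1.61 in HMGN1-OE cells. Relative to the library medians Clec2i was at -1.05 and -1.16 and Clec2d at -0.05 and -0.30. Of 4 other Fc receptors tested, the neonatal receptor Fcgrt rose (1.60 and 1.95), and the IgE receptor chain Fcer1a, at most 2.93 FPKM in any library, passed only through the 96 h libraries. The cytosolic antibody receptor Trim21 fell by 1.33 in WT and was at -0.69 (adjusted p = 0.13) in HMGN1-OE cells, but at 0.51 and 0.62 relative to the library medians. On that scale 36.5% of all genes were higher and 33.8% lower in WT (30.9% and 32.5% in HMGN1-OE cells). Without the genes that passed only through 96 h, 12 of 12 genes of the list of Trem and ITAM-linked receptors, Hcst and Nfam1 included, were higher and 0 lower in WT (11 and 0 in HMGN1-OE cells), 6 of 10 lectins higher and 1 lower (7 and 1), and 2 of 3 other Fc receptors higher and 0 lower (2 and 0).

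Among 13 other inhibitory receptors, 1 passed only through the 96 h libraries. Of the other 12, 5 rose and 1 fell in WT (4.31% and 77.2% of all genes), and 7 rose and 3 fell in HMGN1-OE cells (5.08% and 62.4%). Cd300lf (3.84 and 4.09) and Siglece (3.06 and 3.39) rose, and Cd72, an inhibitory receptor of B cells and myeloid cells, fell by 5.14 and 5.75. Relative to the library medians 10 of the 12 were higher and 1 lower in WT and 9 and 1 in HMGN1-OE cells, beside the shares of all genes just given for that scale. Of 30 genes downstream of the ITAM, 2 passed only through the 96 h libraries. Of the other 28, 1 was higher and 15 were lower in WT, and 2 and 12 in HMGN1-OE cells, where 77.2% and 62.4% of all genes were lower. With libraries centred on their medians 18 of the 28 were higher and 2 lower in WT (36.5% and 33.8% of all genes) and 15 and 5 in HMGN1-OE cells (30.9% and 32.5%). The Src family kinase Fgr and the PI3-kinase subunit Pik3r5 were the 2 genes counted apart, with at most 0.555 and 0.708 FPKM in the earlier libraries and 16.8 to 31.1 and 4.58 to 8.43 FPKM at 96 h. On the deposited scale the kinase Btk fell by 2.58 and 1.86 and the exchange factor Vav2 by 2.54 and 2.11, and relative to the library medians they were at -0.74 and -0.55 and at -0.69 and -0.80. The phosphatases and kinases that act at the ITIM, Ptpn11 (SHP-2) and Csk among them, had 0 higher and 5 lower of 13 in WT and 0 and 4 in HMGN1-OE cells (77.2% and 62.4% of all genes were lower), and relative to the library medians 9 and 0 in WT and 9 and 1 in HMGN1-OE cells. Ptpn11 fell by 2.01 and 1.27 (-0.16 and 0.04 relative to the library medians), and Csk fell in both genotypes, by 1.72 in HMGN1-OE cells (-0.15 in WT and -0.40 in HMGN1-OE cells relative to the library medians).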

How the data were processed

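RNA-seq values of the 12 libraries were analysed as the authors deposited them, in FPKM per gene. According to the methods, RNA came from a fixed number of cells with ERCC synthetic RNAs added, and values were normalized by loess with the 92 ERCC rows as the subset, after alignment with Bowtie. The submitters' processing notes name HISAT, Cufflinks 2.0.0 and the build mm9, and the roles of these tools are not reconciled in the sources used here. Depth is unknown, since FPKM hold no counts, and no counting error is given. Column names gave the genotype and time that set the groups, and 0 columns of other samples were present.

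Genes were kept where 2 or more libraries reached 1 FPKM. log2(FPKM + 1) was fitted with limma 3.58.1 in R 4.3.3 (eBayes with trend, a mean for each of 6 groups, two-sided), with Benjamini-Hochberg adjustment over all tested genes and a threshold of 0.05. The fit was tested on simulated data. Means and ratios of FPKM were also computed in R. Promoter searches were run in Python 3.11.15 with pandas 2.3.3, and plots were made with matplotlib 3.10.9.

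The 10 genes and all lists were chosen with earlier results of these data known. All 10 genes are named, and from each pathway list the 2 genes with the largest called rise and the 2 with the largest called fall from 0 to 96 h in WT without overlap. From each cell type list the gene with the highest mean is named, with genes at or below 0.2 FPKM throughout, and the 5 genes most like the mean course of the 10. S100a9, Csf1r, Mmp9, Klf4, Nfam1 and Hcst, and Cd34, Flt3 and Cpa3 at 36 h, were named after their values were seen. Alternatives were other pseudocounts and filters, centring of libraries on their medians, quantile normalization, only the libraries compared, limma without the trend, no moderation and each library left out in turn. Transgene reads were not analysed here.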

Additional observations from a re-analysis of the deposited data

Results flagged for a closer look

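The fitted change of Fcer1g after 36 h had opposite signs in the genotypes on the deposited scale, and neither change passed the test. Both WT libraries of 96 h (489 and 294 FPKM) were below those of 36 h (493 and 688 FPKM), by -0.62 on the log2 scale (limma adjusted p = 0.323), and both HMGN1-OE libraries of 96 h (381 and 429 FPKM) were above those of 36 h (261 and 324 FPKM), by 0.47 (adjusted p = 0.473). The difference between these changes was 1.09 (SE 0.857, unadjusted p = 0.204, limma adjusted p = 0.355) and was not called. Relative to the library medians Fcer1g was higher at 96 h in both genotypes, by 1.71 in WT and 1.82 in HMGN1-OE cells, and with quantile normalization by 2.11 and 1.96. This contrast was computed after the values were seen.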

How the results depend on the processing

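Of 2398 single-gene values recomputed under the alternatives, 2240 kept their direction and their side of the threshold, and 233 of 242 counts of called genes stayed within 1.5 times the reported count. In WT cells from 0 to 96 h, fitting only the libraries compared left 4 genes called, and from 36 to 96 h it left 3. In HMGN1-OE cells from 0 to 36 h it gave 5 calls. From 36 to 96 h in HMGN1-OE cells, centring each library on its median gave 9 calls and quantile normalization 8. Leaving out 1 library gave 0 to 1 calls for HMGN1-OE against WT at 36 h and at 96 h, and 0 to 1 for 36 against 0 h in HMGN1-OE cells. From 0 to 96 h it gave 5 to 8 calls in WT and 7 to 8 in HMGN1-OE cells. The change from 0 to 96 h turned positive and was called with centring and with quantile normalization for Fcgr2b in WT (1.38 and 1.59), Fcer1g in WT (1.49 and 1.83) and Fcer1g in HMGN1-OE cells (0.94 and 0.98). From 36 to 96 h in WT it turned positive for Fcgr2b (0.74 and 0.98, only the latter called) and, both called, for Fcgr3 (2.23 and 2.48), Fcer1g (1.71 and 2.11) and Trem3 (2.02 and 2.30). These scalings remove the fall of the median of all genes by their construction. In WT cells, when only the compared libraries were fitted, the calls from 0 to 96 h of Fcgr3, Fcgr4 and Trem1 were lost (adjusted p = 0.282, 0.08 and 0.0559). Those from 36 to 96 h of Fcgr1, Fcgr2b and Trem1 were also lost (0.0564, 0.0742 and 0.0703). In HMGN1-OE cells the same restriction added calls from 0 to 36 h, for example that of Fcgr4 (limma adjusted p from 0.186 to 6.97e-05). The main fit shares its estimate of the spread over both genotypes, and the cause of these shifts was not tested. The call of Fcgr3 from 0 to 96 h was also lost with no filter on low values, in WT (adjusted p = 0.274) and in HMGN1-OE cells (0.0925), and with no moderation, where each gene's own spread is used (0.212 and 0.0834). From 36 to 96 h in WT the calls of Fcgr1 and Fcgr2b were lost with no filter (0.0749 and 0.0659), and that of Fcgr2b with no moderation (0.059). For the filter the cause was not tested. No paired analysis was possible because no source links the digits in the column names (0 and 1) to the replicate numbers in the titles of the samples (1 and 2). With 2 libraries a group and no counts, precision is limited, and the test, which takes the spread from the trend, can call a difference smaller than the gap between libraries, as for Fcgr3 in WT.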
